A study of Mus musculus with 6 samples.

Results

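The sequences described here are the unannotated small RNAs whose listed position lies on the mitochondrial chromosome (chrMT) in skeletal muscle of mice with pressure overload of the heart. They were taken as every row of the deposited table of mappable sequences without an annotation whose name begins with chrMT, on either strand. There were 119 such sequences among 1832 in that table, with lengths of 16 to 47 nt. The groups were 3 libraries from mice after transverse aortic constriction (TAC), a surgical narrowing of the aorta that overloads the heart and leads to hypertrophy and failure, and 3 libraries from control mice labelled Sham. All mice were male C57BL6 aged 16 weeks on normal chow. Each sample's record gives a treatment time of 8 weeks, while the protocol puts the harvest at 8 to 10 weeks after TAC. The labels do not name the muscle. Libraries were made from 100 ng of total RNA with a kit whose reads carry unique molecular identifiers (UMIs), so that copies of a molecule are counted once. Nothing in the labels says what the replicate numbers mark, so p-values measure the spread between these libraries. Bulk libraries cannot tell fewer cells of a type from less RNA per cell.

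Both strands of mitochondrial DNA are transcribed into long precursors, from which tRNAs are cut at each end and so release the rRNAs and mRNAs between them. An enzyme then adds the letters CCA to the 3′ end of each tRNA, which the gene does not encode, and a mitochondrial poly(A) polymerase adds A to rRNAs and mRNAs. The control region, which has no genes, holds the promoters and short RNAs that start there, among them replication primers and a short polyadenylated transcript. The space between mt-Tc and mt-Tn is the textbook origin of light-strand replication.

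All 119 sequences lay in the control region, in the gap between mt-Tc and mt-Tn, or in the sense strand of a gene, and 0 were antisense only. None of the 119 was an exact match to any GENCODE transcript. Only sequences left without an annotation were taken, so departures from a gene may follow from how they were listed. Of the 40 sequences in 8 of the 22 mitochondrial tRNA genes, 28 ended in CCA exactly past the annotated 3′ end. Over all members 30 ended in CCA past the template, 2 of them in the gap and not at a tRNA end, 36 ended in A only past the template, 10 ended in other letters, 35 had no letters past the template and 8 had no sequence to be compared with. No genome sequence was used here, so the template is the GENCODE M21 transcript, and for the control region and the gap it is the longest member. The sequences below carry the patterns described in the values that follow. Positions are in GRCm38 and include every letter of the sequence. Capitals mark the letters at the 3′ end that run past the template, or that begin at the first departure from it. In the mt-Rnr2 lines only the first 2 capitals depart from the gene.
mt-Tv, 22 nt, chrMT:1075-1096, plus strand: tgaccaatgaacactctgaCCA
mt-Tv, 26 nt, chrMT:1071-1096, plus strand: ttcatgaccaatgaacactctgaCCA
mt-Tq, 45 nt, chrMT:3769-3813, minus strand: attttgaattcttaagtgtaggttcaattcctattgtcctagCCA
mt-Ta, 40 nt, chrMT:5015-5054, minus strand: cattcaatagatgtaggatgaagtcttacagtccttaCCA
mt-Tt, 41 nt, chrMT:15318-15358, plus strand: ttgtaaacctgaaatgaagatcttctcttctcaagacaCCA
mt-Ts2, 34 nt, chrMT:11641-11674, plus strand: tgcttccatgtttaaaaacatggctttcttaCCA
mt-Tf, 20 nt, chrMT:52-71, plus strand: attgtatcccataaacaCCA
mt-Th, 38 nt, chrMT:11576-11613, plus strand: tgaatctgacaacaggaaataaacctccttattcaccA
mt-Th, 39 nt, chrMT:11576-11614, plus strand: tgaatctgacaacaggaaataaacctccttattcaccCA
mt-Th, 39 nt, chrMT:11576-11614, plus strand: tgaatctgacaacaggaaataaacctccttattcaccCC
mt-Th, 39 nt, chrMT:11576-11614, plus strand: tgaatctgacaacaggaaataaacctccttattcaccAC
mt-Rnr2, 20 nt, chrMT:2466-2485, plus strand: tattaatggttcgtttgtAA
mt-Rnr2, 21 nt, chrMT:2466-2486, plus strand: tattaatggttcgtttgtAAA
mt-Rnr2, 22 nt, chrMT:2466-2487, plus strand: tattaatggttcgtttgtAAAA
gap, 17 nt, chrMT:5161-5177, minus strand: ttttttcggcggtagaa
gap, 17 nt, chrMT:5162-5178, minus strand: tttttttcggcggtaga
gap, 20 nt, chrMT:5158-5177, minus strand: ttttttcggcggtagaagAA
control region, 20 nt, chrMT:16169-16188, minus strand: gaattgatcaggacataggg
control region, 26 nt, chrMT:16163-16188, minus strand: gaattgatcaggacatagggtttgat
control region, 32 nt, chrMT:16157-16188, minus strand: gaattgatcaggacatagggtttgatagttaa
control region, 26 nt, chrMT:16163-16188, minus strand: gaattgatcaggacatagggtttgaA
control region, 28 nt, chrMT:16161-16188, minus strand: gaattgatcaggacatagggtttgaAAA

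A capital is not always an added letter. The A after mt-Th is also the first base of mt-Ts2, which follows it directly, and the letters after mt-Ta do not differ from CCA where a transcript covers them, so added and encoded letters cannot be told apart there. The mt-Th gene itself ends in CC, so the forms ending A and CA also end in the letters CCA. Many members differ by a base at an end, as the mt-Tv and control region lines show. They share sequence, and they are not independent measurements.

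The level of a sequence is given as UMIs per 1000000 UMIs of the listed miRNAs in the same library (UPM). The libraries held 1179365 (Sham 3) to 3440232 (Sham 1) miRNA UMIs. The chrMT sequences held 4806, 3965 and 5382 UMIs in TAC 1, 2 and 3, and 8920, 5967 and 2938 UMIs in Sham 1, 2 and 3. Intervals are not given for these small counts, and the spread between libraries is given instead. Every listed sequence reached at least 10 UMIs in some library, so rarer sequences were not analysed here. Among the chrMT sequences 87 reached 10 UMIs in both groups, 2 in TAC alone and 30 in Sham alone, against 1362, 241 and 229 of all 1832. A sequence listed only through its Sham level is lower in TAC by selection, and the counts, sums and tests below hold such sequences. They were 7 of the 25 sequences with a fold change below 0 and an edgeR adjusted p under 0.1, and 2 of the 11 that DESeq2 called. The miRNA miR-1a-3p, a marker of striated muscle, held between 411400 and 502400 UPM in all 6 libraries.

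Summed over all 119 sequences, the level was 1672, 1848 and 2346 UPM in TAC, against 2593, 2528 and 2491 UPM in Sham. Every TAC library was below every Sham library. The means were 1955 ± 349 in TAC and 2537 ± 51.5 in Sham (SD, n = 3 each), with an exact two-sided permutation p of 0.1, below which 3 against 3 libraries cannot go. With miRNA library sizes scaled by TMM factors the groups overlapped, at 1813, 2056 and 2682 UPM in TAC and 2470, 2293 and 2089 in Sham. The other unannotated sequences averaged 32447 ± 1269 UPM in TAC and 32500 ± 2744 in Sham, and the groups overlapped. Of all 1832 unannotated sequences, however, 1147 (62.6%) begin inside an annotated miRNA hairpin. They are thus not a set apart from the miRNAs used for scaling, and the backgrounds below come from the same 1832. The chrMT share of unannotated UMIs was 5.01%, 5.50% and 6.47% in TAC, against 7.36%, 6.71% and 7.74% in Sham. The plus strand held 43.4% ± 4.53 of chrMT UMIs in TAC and 49.95% ± 6.77 in Sham, with overlapping groups.

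By site, the largest part of the chrMT UMIs came from the control region sequences with a shared start (33.4%). The inner site of mt-Rnr2, the 16S rRNA gene, that carries the 3 lines above held 16.5%. The mt-Th 3′ pieces, from the gene of the histidine tRNA, held 14.9%, and the gap held 12.2%. The mt-Tv sequences, from the valine tRNA gene, held 9.02%. No other site held more than 3%.

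**Figure D1:**
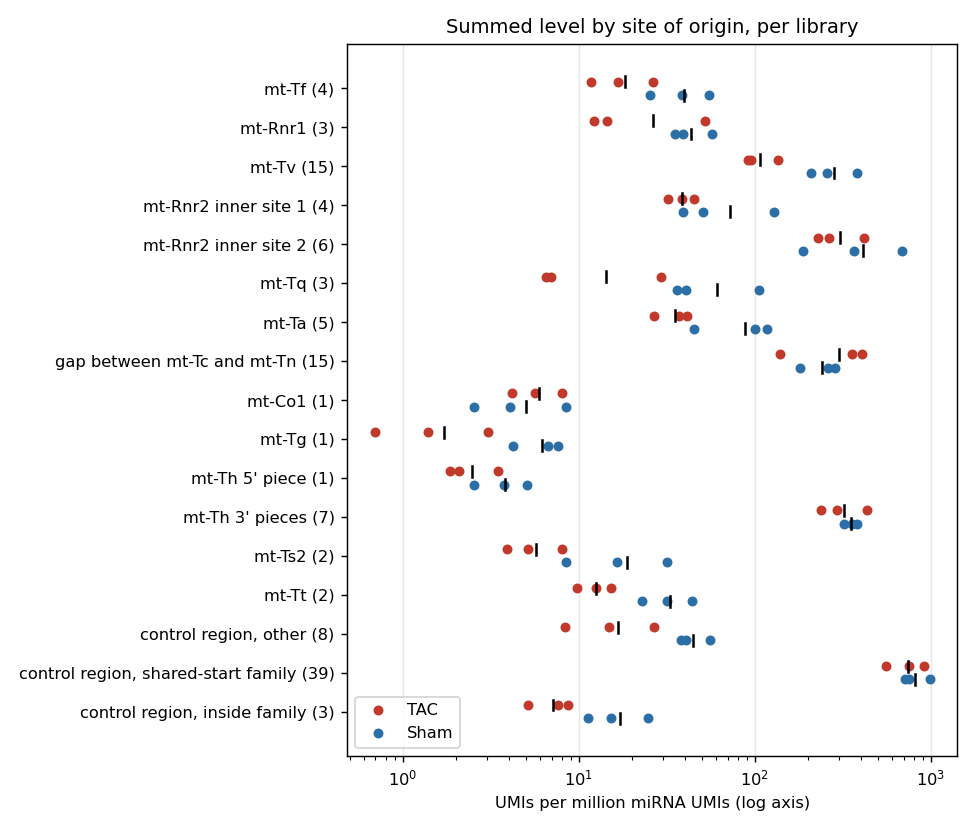
Summed UMIs per 1000000 miRNA UMIs (log axis) at each site of origin, with the number of sequences in brackets, 1 point per library and a bar at the group mean. The TAC points of mt-Tv lie between 91.8 and 136, all below the Sham points, while the points of the mt-Th 3′ pieces and of the shared-start family overlap.

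Across all tested unannotated sequences, 93 of the 119 passed the filter on low counts, among 1244 in all. No chrMT sequence had an edgeR quasi-likelihood adjusted p under 0.05 (0 of 93), against 0.161% of the sequences tested. At an unadjusted p under 0.05, 38 were lower in TAC, against a background of 11.3%, and 4 were higher, against 9.49%. At an adjusted p under 0.1, 25 were lower, against 5.79%, and 1 was higher, against 4.58%. DESeq2 called 11 of the 93 lower at an adjusted p under 0.05, against 3.38%, and 0 higher, against 0.804%. The groups did not overlap for 33 sequences with TAC below Sham, against 9.41%, and for 2 with TAC above Sham, against 14.5%.

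The log2 fold change, TAC over Sham, was below 0 for 76 of the 93 and for 633 of the 1244. Its median was -0.71 for the chrMT sequences and -0.01 over all tested sequences. With miRNA UMIs scaled by TMM as library sizes, the median over all tested sequences moved by 0.34, and the medians were -0.36 and 0.33. In that fit 67 of the 93 were below 0, against 349 of the 1244.

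**Figure D2:**
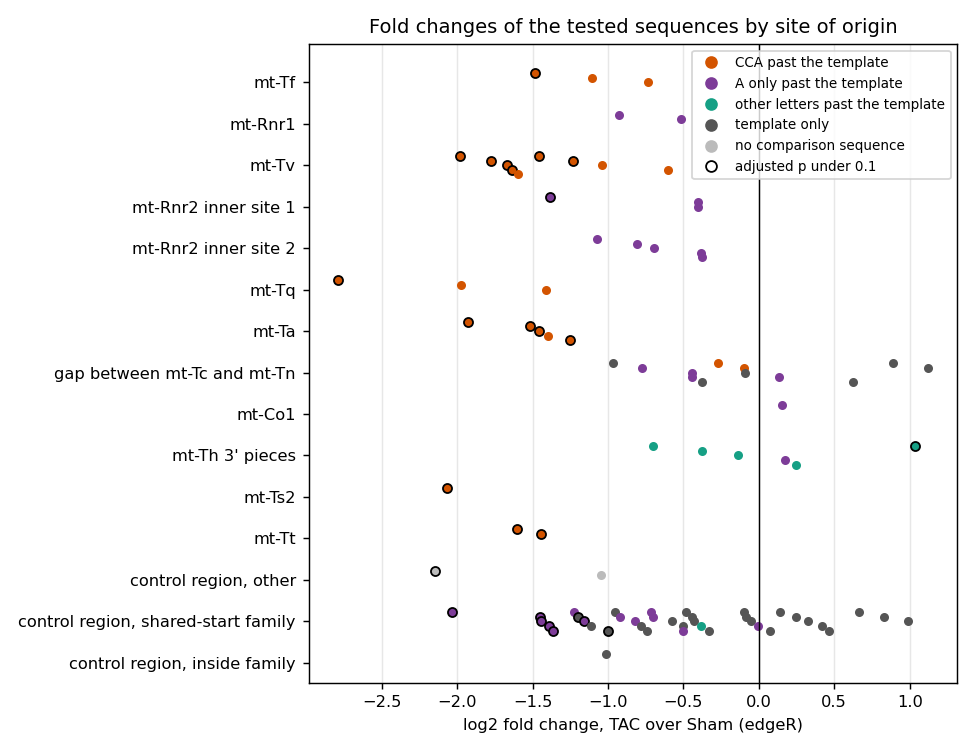
log2 fold change of TAC over Sham (edgeR) for each of the 93 tested sequences, grouped by site and coloured by the letters past the template; black rings mark an adjusted p under 0.1. The sequences ending in CCA in tRNA genes lie between -2.79 and -0.60, while those of the gap, the mt-Th 3′ pieces and the shared-start family lie on both sides of 0.

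The 3′ pieces of tRNAs other than mt-Th had lower summed levels in TAC than in Sham. Leaving mt-Th aside, 32 sequences came from 7 tRNA genes, and together they had 188, 172 and 225 UPM in TAC, against 742, 436 and 407 UPM in Sham. The means were 195 ± 27.6 in TAC and 528 ± 186 in Sham, a ratio of 0.369, and no library of one group reached the other. Of these, 23 were tested and all 23 had a fold change below 0, 15 of them with an edgeR adjusted p under 0.1. Over all 1244 tested unannotated sequences, 633 were below 0 and 5.79% were lower at that threshold. Of the 11 sequences that DESeq2 called lower, 10 came from these genes and all 10 ended in CCA. With miRNA library sizes scaled by TMM the joint sums stayed apart, at 204, 191 and 258 UPM in TAC and 707, 395 and 341 in Sham, although the separate sums of mt-Tq, mt-Ta and mt-Ts2 then overlapped. Restricted to the 23 sequences that reached 10 UMIs in both groups, the means were 174 ± 26.5 in TAC and 465 ± 168 in Sham. Setting mt-Th aside was not planned beforehand. That gene held 4822 UMIs over all libraries, against 5486 in the 32 sequences. With TMM-scaled miRNA library sizes its sums overlapped, at 259, 328 and 499 UPM in TAC and 364, 292 and 303 in Sham. The ratio, the counts and the lack of overlap above hold for the chosen set only. No joint sum with mt-Th is given.

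The 15 mt-Tv sequences lie in the valine tRNA gene at chrMT:1025-1093 (GRCm38, plus strand). They summed to 95.0, 91.8 and 136 UPM in TAC, against 381, 208 and 257 in Sham. Most form a ladder that ends in the same CCA and starts at successive bases, and the 22 nt and 21 nt steps were the most abundant. The 22 nt sequence, listed at chrMT:1075-1096, had 28.5, 21.4 and 44.9 UPM in TAC, against 135, 59.3 and 95.0 in Sham. Each TAC library was below each Sham library, and the log2 fold change was -1.67 ± 0.36 (SE), with an edgeR adjusted p of 0.0602 and a DESeq2 adjusted p of 0.00299.

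The 21 nt mt-Tv sequence had 23.7, 23.3 and 36.6 UPM in TAC and 87.2, 51.7 and 48.3 in Sham. Its groups did not overlap either, and the fold change was -1.24 ± 0.31 (edgeR adjusted p = 0.0781). Longer steps were rarer, and those of 27, 32, 33 and 38 nt overlapped between the groups. Those of 24, 26 and 28 nt did not overlap. The 26 nt sequence had 3.83, 3.73 and 3.92 UPM in TAC, against 19.5, 13.98 and 9.33 in Sham (-1.98 ± 0.373, edgeR adjusted p = 0.0602). The 24 nt sequence had 4.87, 2.80 and 6.54 in TAC and 18.6, 12.7 and 16.1 in Sham (-1.78 ± 0.365, edgeR adjusted p = 0.0602). The 28 nt sequence had 3.48, 3.26 and 2.61 in TAC and 11.3, 8.90 and 7.63 in Sham (-1.64 ± 0.35, edgeR adjusted p = 0.0602). All 9 tested mt-Tv sequences had fold changes below 0, down to -1.98 and up to -0.60.

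The alanine tRNA gene mt-Ta gave 5 sequences of 34 to 40 nt on the minus strand, with 41.0, 37.3 and 26.6 UPM in TAC, against 118, 101 and 44.9 in Sham. The TAC values were all below the Sham values, the closest being 41.0 in TAC 1 and 44.9 in Sham 3. The 40 nt sequence, at chrMT:5015-5054, had 3.13, 0.932 and 3.05 UPM in TAC and 9.59, 10.2 and 6.78 in Sham. It reached 10 UMIs in Sham alone, so its fold change of -1.93 ± 0.427 (edgeR adjusted p = 0.0602) is that of a sequence listed through its Sham level. The 39 nt sequence, which reached 10 UMIs in both groups, had 16.002, 16.3 and 10.9 UPM in TAC, against 39.8, 42.8 and 15.3 in Sham. Its groups overlapped (-1.25 ± 0.391, edgeR adjusted p = 0.097).

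The glutamine tRNA gene mt-Tq gave 3 sequences of 44 to 46 nt, summing to 6.96, 6.53 and 29.2 UPM in TAC, against 106, 36.0 and 40.7 in Sham. TAC 3 stood near the Sham values and the other TAC libraries far below them. The 45 nt sequence had 2.44, 1.86 and 13.5 UPM in TAC, against 62.5, 22.9 and 28.8 in Sham. Its fold change of -2.79 ± 0.651 was the lowest of the 93 (edgeR adjusted p = 0.0611, DESeq2 adjusted p = 0.000742). It was named for that, after the values were seen, as were the next 2 sequences and the other members named outside the naming rule.

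The threonine tRNA gene mt-Tt gave 2 sequences, with 9.74, 12.6 and 15.3 UPM in TAC and 44.2, 31.8 and 22.9 in Sham, without overlap. The 41 nt sequence had a fold change of -1.45 ± 0.342 (edgeR adjusted p = 0.0613). The mt-Ts2 gene, one of the pair of serine tRNA genes, gave 2 sequences, with 8.00, 5.13 and 3.92 UPM in TAC and 31.7, 16.5 and 8.48 in Sham. The 34 nt sequence had a fold change of -2.07 ± 0.579 (edgeR adjusted p = 0.0875). The phenylalanine tRNA gene mt-Tf gave 4 sequences whose sums overlapped, at 26.4, 16.8 and 11.8 UPM in TAC and 54.9, 38.6 and 25.4 in Sham. The glycine tRNA gene mt-Tg gave 1 sequence ending CC, too rare to be tested, with 0.696, 1.398 and 3.05 UPM in TAC and 6.69, 4.24 and 7.63 in Sham. This sequence and 1 of the 2 in each of mt-Tt and mt-Ts2 reached 10 UMIs in Sham alone.

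The histidine tRNA gene mt-Th, at chrMT:11546-11612 on the plus strand, did not share this order of groups. Its 7 pieces from the 3′ part, all starting at base 11576, summed to 237, 293 and 433 UPM in TAC, against 378, 319.8 and 356 in Sham. TAC 3 was the highest library and TAC 1 the lowest, so the groups overlapped. The form ending A had 101, 115 and 167 UPM in TAC and 106, 87.7 and 136 in Sham (fold change 0.18 ± 0.248, edgeR adjusted p = 0.76). The form ending CA had 49.7, 76.9 and 123 in TAC and 143, 119 and 126 in Sham (-0.70 ± 0.296, edgeR adjusted p = 0.206). These forms, which differ by a C, thus had fold changes of opposite sign, although neither passed the test.

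The form ending CC had 36.9, 45.2 and 82.4 UPM in TAC and 83.4, 68.2 and 50.9 in Sham (-0.38 ± 0.32, edgeR adjusted p = 0.597). The rare form ending AC was higher in every TAC library, with 10.4, 11.7 and 10.5 UPM against 4.65, 5.08 and 5.94 in Sham. Its fold change was 1.03 ± 0.306 (edgeR adjusted p = 0.0875, DESeq2 adjusted p = 0.263), the only one above 0 with an edgeR adjusted p under 0.1. The form ending in C alone had 31.3, 32.2 and 40.1 UPM in TAC, against 29.1, 27.1 and 28.0 in Sham, also without overlap (0.25 ± 0.227, edgeR adjusted p = 0.616). Within the 7 pieces, the form ending A made up 42.8%, 39.3% and 38.6% of UMIs in TAC, against 27.9%, 27.4% and 38.1% in Sham. The groups did not overlap, but Sham 3 was close to TAC 3. The single piece from the 5′ part of mt-Th was rare, with a mean of 2.48 UPM in TAC and 3.803 in Sham. It differs from the gene by A8G, counted from the first base of the gene.

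The annotated fragments of the same tRNAs were in a separate table, whose counting rules no source used here gives. All 22 mitochondrial tRNAs were tested there among 238 tRNA rows. None was lower by edgeR at an adjusted p under 0.05, against 1.26% of the rows, and none higher, against 2.94%. At an unadjusted p under 0.05 edgeR had mt-Tq and mt-Ts1 lower and mt-Th higher, with edgeR adjusted p of 0.254, 0.141 and 0.141. DESeq2 called mt-Ts1 lower (adjusted p = 0.043). The share of all 238 rows is not given for these calls, so they are not read as a result about mitochondrial tRNAs. Annotated mt-Th had 453, 311 and 300.3 UPM in TAC, against 276, 251 and 168 in Sham, and every TAC library was above every Sham library. Its log2 fold change was 1.03 ± 0.372 (edgeR adjusted p = 0.141).

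The levels in UPM of annotated tRNAs were lower in TAC as a whole. Mitochondrial tRNAs summed to 7992, 5903 and 7409 UPM in TAC, against 12734, 10420 and 8299 in Sham. The other annotated tRNAs summed to 8394, 10870 and 11320 in TAC, against 14474, 16230 and 21703 in Sham, also without overlap. Of the tRNA rows, 31.1% had TAC below Sham without overlap and 5.04% had TAC above Sham. The tRNA fold changes are set against that class and cannot be laid beside those of the unannotated sequences.

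In UPM, the ratio of TAC to Sham means was lower for the unannotated sequences than for the annotated row in all 8 genes. In mt-Tv it was 0.381 for the unannotated sequences and 0.702 for the annotated row, in mt-Ta 0.398 and 0.815, in mt-Tq 0.234 and 0.441, and in mt-Th 0.911 and 1.53. As a share of both, which needs no scaling, the unannotated mt-Tv sequences made up 36.6%, 45.1% and 61.8% in TAC, against 65.1%, 58.8% and 61.2% in Sham. The groups overlapped there because of TAC 3, and they overlapped in 7 of the 8 genes. The exception was mt-Ts2, where the share was 0.134% ± 0.0417 in TAC and 0.299% ± 0.129 in Sham. Summed over the 7 genes without mt-Th, again a set not planned beforehand, the share did not overlap between groups. It was 3.29%, 4.04% and 4.11% in TAC, against 7.89%, 5.82% and 6.74% in Sham. The mt-Ts2 gene held 75909 of the 89784 annotated UMIs in that sum but 201 of the 5486 unannotated ones. Without it the share, computed after the values were seen, was 18.6%, 23.4% and 21.96% in TAC, against 32.5%, 30.2% and 26.9% in Sham, again with no overlap. Of the 32 unannotated sequences in the 7 genes, 23 reached 10 UMIs in both groups and the others in Sham alone. Both shares include those others, which are lower in TAC by selection, and no share of the 23 alone is given. The ratios of the 8 genes also hold sequences listed through Sham alone, except in mt-Tf and mt-Tq. The ratio of mt-Tg rests on 1 such sequence.

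**Figure D3:**
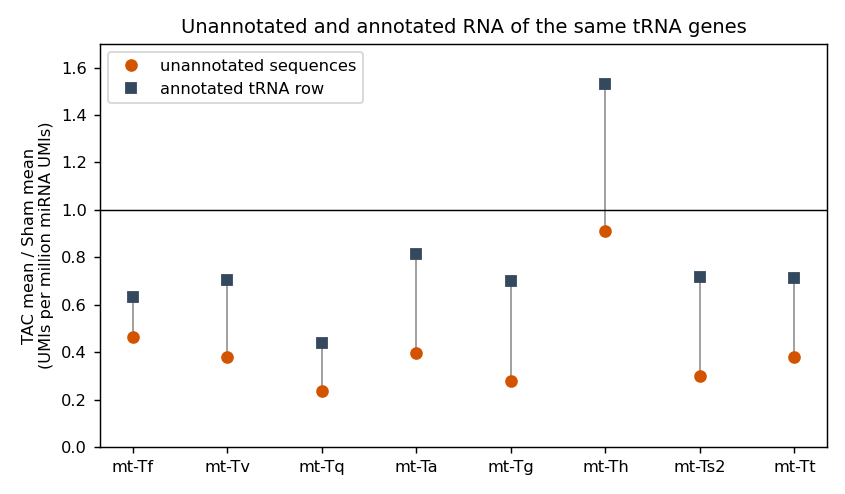
Ratio of the TAC mean to the Sham mean (UMIs per 1000000 miRNA UMIs) for the unannotated sequences (circles) and the annotated row (squares) of each of the 8 tRNA genes. The circle lies below the square in all 8 genes, at 0.381 and 0.702 in mt-Tv, and mt-Th is the gene with its square above 1.

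In the rRNA genes the unannotated sequences ended in A only. Whether this follows from how sequences were left unannotated was not tested. The inner mt-Rnr2 site at the listed positions chrMT:2464-2487 gave 6 sequences that depart from the gene by T1391A and C1392A, counted from its first base. Further A letters in the longer forms match the gene. The 21 nt form was the most abundant chrMT sequence, with 107, 167 and 88.5 UPM in TAC, against 137, 251 and 70.4 in Sham (fold change -0.38 ± 0.421, edgeR adjusted p = 0.692). TAC 2 and Sham 2 were the highest libraries of their groups in all 3 abundant forms, and the groups overlapped. The 22 nt form averaged 89.1 ± 21.5 UPM in TAC and 112 ± 70.0 in Sham, and the 20 nt form 84.9 ± 35.9 in TAC and 132 ± 88.1 in Sham.

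Their proportions within the site varied little. The forms with AA made up 23.9%, 31.96% and 29.4% of the site's UMIs in TAC, against 32.04%, 34.6% and 33.2% in Sham. TAC lay below Sham there, although TAC 2 and Sham 1 nearly touched. The forms with AAA made up 40.9% ± 1.11 in TAC and 39.1% ± 1.74 in Sham, and the forms with AAAA 30.7% ± 3.39 in TAC and 27.6% ± 1.52 in Sham, both with overlap. The other inner mt-Rnr2 site gave 4 sequences with G1162A and T1163A, summing to 32.003, 38.7 and 45.3 UPM in TAC and 39.2, 50.8 and 128 in Sham. The 3 sequences at the end of mt-Rnr1, the 12S rRNA gene, carry an A past its last base and averaged 26.3 ± 22.5 UPM in TAC and 43.7 ± 11.6 in Sham, with overlap. Whether such letters were added or differ from the reference for another cause was not tested.

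The only sequence in a protein gene lay in mt-Co1, a subunit of cytochrome c oxidase, with a mean of 5.95 UPM in TAC and 5.03 in Sham, and overlapping groups. The mRNA table lists fragments of all 13 mitochondrial protein genes. None passed an edgeR adjusted p of 0.05, against 4 of the 49 mRNA rows tested. Their summed levels were 3394, 1901 and 3295 UPM in TAC, against 5249, 3225 and 4490 in Sham. The groups overlapped, and the mean was lower in TAC, at 2863 ± 835 against 4321 ± 1023. None of 19 gene names for mitochondrial RNA processing and decay was listed there, and other names of these genes were not searched.

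The gap between mt-Tc and mt-Tn, at chrMT:5160-5191 and read on the minus strand, gave 15 sequences. Their template letters end at or before the last gap base, next to the start of mt-Tn. They summed to 356, 138 and 407 UPM in TAC, against 261, 181 and 284 in Sham, and TAC 2 was the lowest library. The 17 nt sequence at chrMT:5161-5177 had 149, 45.2 and 175 UPM in TAC, against 69.2, 31.8 and 62.7 in Sham. Its fold change was 1.12 ± 0.462, with an unadjusted p of 0.0359 and an edgeR adjusted p of 0.195. A second 17 nt sequence, shifted by a base, had 87.7, 20.98 and 79.8 UPM in TAC and 31.4, 26.3 and 64.4 in Sham (0.62 ± 0.499, edgeR adjusted p = 0.565).

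Together these 2 sequences made up 66.6%, 47.8% and 62.6% of the gap UMIs in TAC, against 38.5%, 32.1% and 44.8% in Sham. This share, computed after the values were seen, did not overlap between groups. The 7 gap sequences that ended in A past the gap had 72.0, 47.5 and 86.7 UPM in TAC and 98.2, 83.0 and 102 in Sham, with overlap. The 20 nt sequence ending AA had 16.7, 12.1 and 17 UPM in TAC, against 33.1, 21.2 and 20.3 in Sham (-0.77 ± 0.303, edgeR adjusted p = 0.176). Another 2 gap sequences ended in CCA although no tRNA ends there. They summed to 15.2 ± 8.27 UPM in TAC and 16.0 ± 7.44 in Sham.

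The control region gave 50 sequences, all on the minus strand, and 39 of them began at the same base, chrMT position 16188. That start lies 766 bases beyond the last annotated gene. The family ran from 17 to 42 nt and summed to 557, 749 and 908 UPM in TAC, against 710, 754 and 984 in Sham, with overlapping groups. Among the 25 sequences without letters past the template, the levels peaked at 20 to 22 nt, at 28 nt and at 32 nt. They summed to 669 ± 155 UPM in TAC and 687 ± 130 in Sham.

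The most abundant of them, the 20 nt sequence, had 81.1, 74.1 and 93.7 UPM in TAC, against 77.3, 100.4 and 154 in Sham (-0.45 ± 0.265, edgeR adjusted p = 0.402). The 21 nt sequence averaged 77.1 ± 7.69 in TAC and 60.7 ± 26.9 in Sham, and the 22 nt sequence 58.0 ± 16.2 in TAC and 51.3 ± 15.6 in Sham. Both pairs of groups overlapped. The 28 nt sequence averaged 69.4 ± 28.5 in TAC and 49.1 ± 19.2 in Sham, also with overlap. The 32 nt sequence had 35.5, 77.8 and 73.7 UPM in TAC, against 27.0, 38.6 and 24.6 in Sham. TAC 2 and TAC 3 were above every Sham library and TAC 1 was below Sham 2, and the fold change was 0.99 ± 0.329 (edgeR adjusted p = 0.113). The 29 nt sequence averaged 40.3 ± 11.7 UPM in TAC and 25.0 ± 6.48 in Sham (0.67 ± 0.297, edgeR adjusted p = 0.237). The 41 nt sequence averaged 13.2 ± 4.83 UPM in TAC and 7.91 ± 5.63 in Sham (0.83 ± 0.476, edgeR adjusted p = 0.385), and in both the groups overlapped.

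Lengths of 25 and 26 nt, between the peaks, had lower TAC values. The 25 nt sequence had 11.1, 13.5 and 25.3 UPM in TAC, against 32.8, 31.3 and 47.5 in Sham (-1.20 ± 0.331, edgeR adjusted p = 0.0875). The 26 nt sequence had 14.6, 12.6 and 25.7 in TAC, against 35.8, 30.5 and 35.6 in Sham (-0.999 ± 0.296, edgeR adjusted p = 0.0875). In both, each TAC library was below each Sham library.

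The forms of this family that ended in A past the template were lower in TAC as a group. Forms whose final A matches the template are not among them. The 13 sequences summed to 38.3, 70.9 and 80.2 UPM in TAC, against 105, 119.9 and 139 in Sham, without overlap. They made up 6.88%, 9.46% and 8.83% of the family's UMIs in TAC, against 14.8%, 15.9% and 14.1% in Sham. The means were 8.39% ± 1.35 and 14.95% ± 0.898 (exact two-sided permutation p = 0.1), and this share does not depend on how libraries are scaled. It was computed after the values were seen, so its p is descriptive only. With only the sequences that reached 10 UMIs in both groups, the TAC minus Sham difference was -4.93 percentage points, against -6.56 with all.

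All 13 had a fold change below 0, the highest being -0.01, and 6 had an edgeR adjusted p under 0.1. Of the 24 tested forms without letters past the template, 15 were below 0 and 2 had an edgeR adjusted p under 0.1. Over all 1244 tested unannotated sequences, 633 were below 0 and 5.79% were lower at that threshold. The 26 nt form ending A had 3.13, 7.92 and 6.10 UPM in TAC, against 13.1, 16.1 and 16.1 in Sham (-1.45 ± 0.37, edgeR adjusted p = 0.0839). The 28 nt form ending AAA had 0.348, 0.932 and 2.61 in TAC, against 5.81, 4.66 and 4.24 in Sham (-2.03 ± 0.564, edgeR adjusted p = 0.0875). The groups of both forms were apart, but the 28 nt form is 1 of 5 among the 13 that were listed through Sham alone. Of the other 8, all had a fold change below 0 and 3 had an edgeR adjusted p under 0.1. With miRNA UMIs scaled by TMM as library sizes, 12 of the 13 were below 0.

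**Figure D4:**
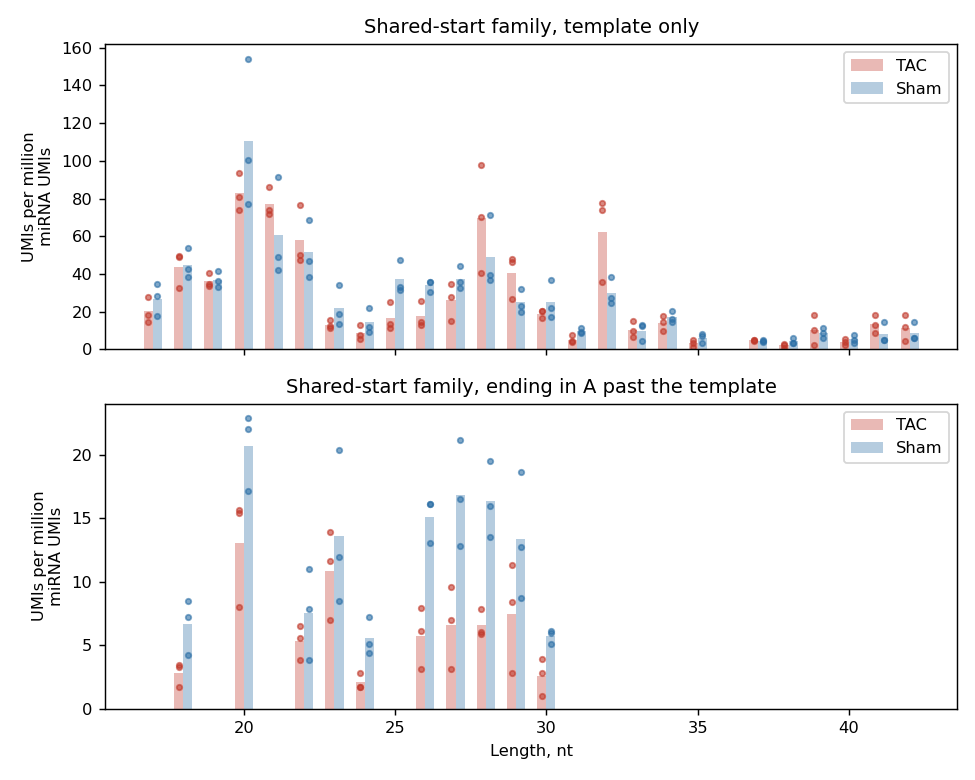
Levels of the shared-start control region family by length (nt), in UMIs per 1000000 miRNA UMIs, for sequences of template letters alone (top) and for those ending in A past the template (bottom); bars are group means and points are libraries. The 32 nt bar is higher in TAC (62.3 against 30.1 in Sham), while the lower panel has the TAC bar below the Sham bar at each of its lengths.

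The remaining 11 control region sequences were rare. Of these, 3 lie inside the shared-start sequence and summed to 7.65, 5.13 and 8.72 UPM in TAC, against 11.3, 15.3 and 24.6 in Sham. The other 8, for which no comparison sequence was used, summed to 8.35, 14.9 and 26.6 in TAC, against 40.4, 38.1 and 56.0 in Sham. Neither sum overlapped between groups. Of the 8, however, 7 reached 10 UMIs in Sham alone, and of the 3, 1, and a sum of sequences listed that way is lower in TAC by selection. A 16 nt sequence at chrMT:16007-16022 had 1.74, 1.398 and 3.05 UPM in TAC, against 7.27, 5.93 and 16.1 in Sham (-2.15 ± 0.497, edgeR adjusted p = 0.0611, DESeq2 adjusted p = 0.0243), and it is 1 of those 7.

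**Figure D5:**
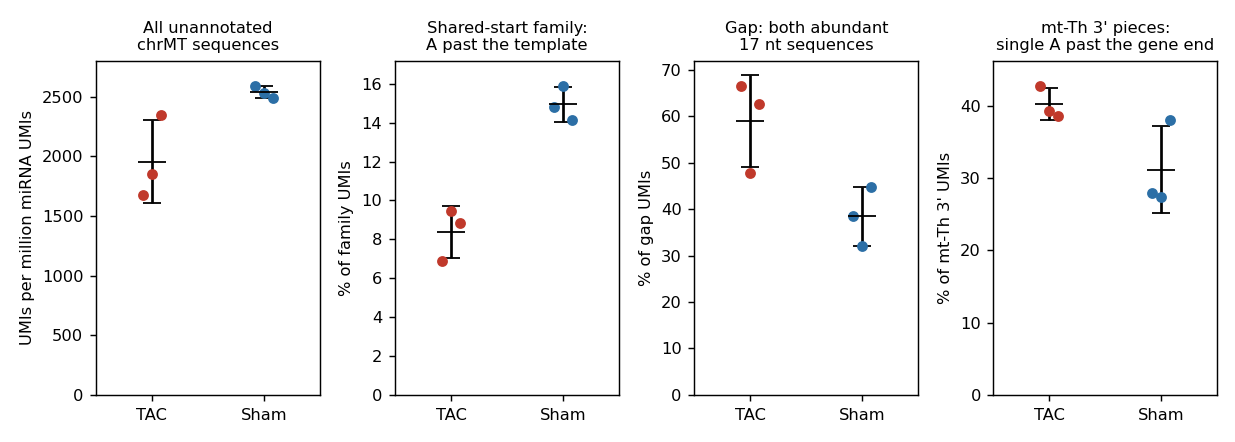
From left, the summed level of all 119 sequences (UMIs per 1000000 miRNA UMIs) and 3 shares within a site (% of the site's UMIs), with 1 point per library and the mean ± SD. The 3 shares were computed after the values were seen. In each panel the 3 TAC points and the 3 Sham points do not overlap; the A-ended share of the shared-start family is 8.39% in TAC and 14.95% in Sham.

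Other measures also differed between the groups, and their part in these results was not tested. The slow-fibre miRNA miR-208b-3p had 0, 0 and 0.872 UPM in TAC, against 38.4, 11.9 and 73.8 in Sham. The slow-fibre miR-499-5p had 0, 0 and 6.54 UPM in TAC, against 42.15, 13.1 and 20.4 in Sham. The muscle miRNA miR-206-3p had 1043, 3257 and 2301 UPM in TAC, against 9955, 4988 and 27780 in Sham. The liver miRNA miR-122-5p had 378, 1895 and 63.6 UPM in TAC, against 15.1, 17.4 and 3.39 in Sham, and the 3 liver markers summed to 215 to 2299 in TAC and 164 to 292 in Sham. The epithelial miR-200a-3p, miR-200b-3p and miR-429-3p were lower in TAC and at most 36.0 UPM. The 5 listed of the 7 markers of kidney and other epithelium summed to 1706 to 2669 in TAC and 2018 to 4916 in Sham. Most of that sum was miR-10a-5p, at 1607 to 2573 UPM in TAC and 1868 to 4793 in Sham, so it says little of the others. The 7 muscle markers summed to 601950 to 616380 in TAC and 534180 to 615580 in Sham, with overlap. The 4 blood markers summed to 386 to 741 in TAC and 555 to 996 in Sham. The 2 endothelial markers summed to 31319 to 33778 in TAC and 31957 to 43385 in Sham, and the 2 fibroblast markers to 4850 to 7296 in TAC and 6289 to 8368 in Sham, these sums all with overlap. Within them, miR-126a-3p, at 26820 to 28270 UPM in TAC and 28890 to 34260 in Sham, and miR-214-3p, at 21.9 to 33.1 in TAC and 40.7 to 51.5 in Sham, were lower in every TAC library. In the numbering of the deposited columns the TAC libraries precede the Sham libraries, so this order and the groups cannot be told apart.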

How the data were processed

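Small RNA of 6 skeletal muscle libraries was compared, 3 TAC and 3 Sham. The deposited tables hold raw counts per sequence or gene, as UMIs and as reads, per the file headers, and the UMI counts were used. Positions are in GRCm38, a build that the submitters' processing notes name. Not given in the sources used here were the aligner, the counting, the rule that made a sequence unannotated and the handling of copies of mitochondrial DNA in the nuclear genome. Reads per UMI were 1.02 for the chrMT sequences, whose 0-based positions were placed on GENCODE M21 annotation and transcripts. A sequence was assigned to the gene that holds most of its bases.

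Counts were fitted over all rows of a table with edgeR 4.0.16 in R 4.3.3 (TMM factors, filterByExpr at a count of 10 and a total of 15, quasi-likelihood test of the group term, two-sided, Benjamini-Hochberg adjustment over all tested rows, threshold 0.05). The standard error of a fold change was taken from its F statistic. The fits were tested on simulated data. DESeq2 1.42.0, limma-voom (limma 3.58.1), other scalings, no filter, reads, leaving out each library, blocking on the replicate number and a threshold of 0.1 were alternatives. Sums were taken per 1000000 miRNA UMIs.

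The rule names the 15 most abundant chrMT sequences, any past the threshold and the 5 with the smallest p in each direction. Members and lists were chosen with earlier results of these data known, and shares within a site and further named sequences after the values were seen. The set of tRNA genes without mt-Th was not planned beforehand. Between libraries of a group, chi-square per degree of freedom was 2.82 to 6.15, above sampling noise. Total reads ran from 1695043 to 5146811 per library.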

Additional observations from a re-analysis of the deposited data

How the results depend on the processing

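The count of 0 chrMT sequences past the threshold held in edgeR with RLE or upper-quartile factors, with library size only, without the filter and with reads, and in limma-voom. It was 4 (2 of them higher) with miRNA UMIs as library size, 11 in DESeq2, 26 at a threshold of 0.1, and 0 to 2 when each library was left out. The 2 arose without Sham 2, as the 22 nt mt-Tv (adjusted p = 0.0218) and the 45 nt mt-Tq sequence (0.0464). The cause was not tested. Over all unannotated sequences the count of 2 became 0 with library size only and 1 in limma-voom. It was 91 with miRNA UMIs as library size (80 of them higher), 52 in DESeq2 (10 higher) and 129 at a threshold of 0.1. Leaving out a library gave 0 to 12, the 12 without Sham 2. For annotated mitochondrial tRNAs the count of 0 became 1 with library size only and 1 in DESeq2, without a share of all tRNA rows beside it.

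The replicate numbers were not read as pairing the libraries, since same-numbered libraries correlated with r = 0.0853, 0.161 and 0.224 in their deviations from the group means across sequences. Every library correlated best with its own number, which is a hint from the data only. With the number as a replicate block, 25 chrMT sequences passed, 23 lower (24.7% of 93) and 2 higher (2.15%). Over all 1244 tested unannotated sequences 141 passed, 88 lower (7.07%) and 53 higher (4.26%). In the same setting 3 annotated mitochondrial tRNAs passed. Of these 3, 2 of 22 were lower (9.09%), against 7.14% of the 238 tRNA rows, and 1 was higher (4.55%), against 5.04%. The summed chrMT level gave an exact two-sided sign-flip p of 0.25, below which 3 pairs cannot go, with the same difference of -582.05 UPM.

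As a share of chrMT UMIs, the differences of mt-Th (2.29 percentage points) and of the control region (3.999) reversed sign. On leaving out a library, the difference between the groups ran from -88.3 to 10.7 UPM for mt-Th and from -0.317 to 2.65 for mt-Co1. The fold change ran from -0.73 to 0.17 for the 22 nt and from -0.73 to 0.14 for the 21 nt mt-Rnr2 sequence, from -0.022 to 0.35 for the mt-Th form ending A, and from -0.069 to 0.38 for the 22 nt control region sequence. With TMM-scaled miRNA UMIs, the sums of mt-Th and of the control region were also higher in TAC, by 42.5 and 68.1 UPM. The sums of the other genes and of the gap kept their direction under the alternatives run. The chrMT share of unannotated UMIs differed by -1.61 percentage points. As a share of only those UMIs outside miRNA hairpins, which is a larger share of a smaller total, it differed by -1.06. These differences have unlike bases and cannot be compared directly. The summed chrMT difference ran from -777 to -99.9 UPM, the smallest with TMM-scaled miRNA UMIs. Counts of a few UMIs per library limit the rare sequences.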
